A study of Mus musculus with 24 samples.

Results

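Slow/slow neural progenitor cells (NPCs) were compared with the mature neurons grown from them after replating, to describe which neuronal and glial programmes the cells gained and which progenitor programmes they kept. The comparison used 6 of the 24 RNA-seq libraries of the series, 3 of slow/slow NPCs and 3 of slow/slow neurons, chosen by genotype and stage. All 24 libraries were fitted in 1 model and share its estimate of the spread, and the 6 libraries of WT NPCs and WT neurons were compared with the slow/slow ones where the slow course was tested against the WT course. All cells came from the E14 mouse embryonic stem cell (ESC) line, and slow/slow cells were homozygous for R749H in Polr2a, the gene of the largest subunit of RNA polymerase II, a change that slows elongation. NPCs were collected on day 7 of monolayer culture in N2B27 medium, which slow/slow cells had entered at 30000 and WT cells at 10000 cells per cm2. For neurons, cells were detached on day 7, replated on poly-ornithine and laminin in N2B27 supplemented with ascorbic acid (0.2 mM) and cAMP (0.25 mM), and kept for a further 14 days. The replicates were independent differentiation experiments of 1 slow/slow line and its WT parent, so effects of the mutation and of that line cannot be told apart. No selection step is given for the replated cultures, so the neuron libraries hold whatever cells were on the dish. The 6 slow/slow libraries held between 32974432 and 77285813 counts, and between 6.75% and 9.47% of them fell on the 20 most abundant genes of a library.

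As background, NPCs in such monolayers resemble the early neuroepithelium: they divide, carry Sox2, Pax6 and nestin, and hold back differentiation through Notch signalling. Cells that escape Notch switch on proneural bHLH factors such as Neurog2, leave the cell cycle and then build axons, synapses and ion channels. Astrocytes and oligodendrocytes arise later from the same radial-glia-like progenitors, and position along the neural tube is recorded by homeobox genes.

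After replating, slow/slow cells held more of most neuronal and synaptic transcripts and of most progenitor markers, and they held less of the pluripotency and cell cycle transcripts. Of 16627 genes tested, 12470 (75.0%) changed between slow/slow NPCs and neurons, 6386 (38.4%) upwards and 6084 (36.6%) downwards, at an edgeR false discovery rate (FDR) under 0.05. For 14125 genes (85.0%) the 3 NPC and 3 neuron libraries did not overlap. With a minimum change of 2-fold, 3955 genes rose and 3183 fell. Since most genes tested were called, each count of list members is to be read against these shares. Levels are given as CPM, the counts scaled to the library's effective size, as the mean ± SD of n = 3 libraries where no single values are given, and changes as log2 ± SE. In bulk RNA, fewer cells of a type and less RNA per cell cannot be told apart. The plot of list medians sets every gene list beside its WT value.

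**Figure D1:**
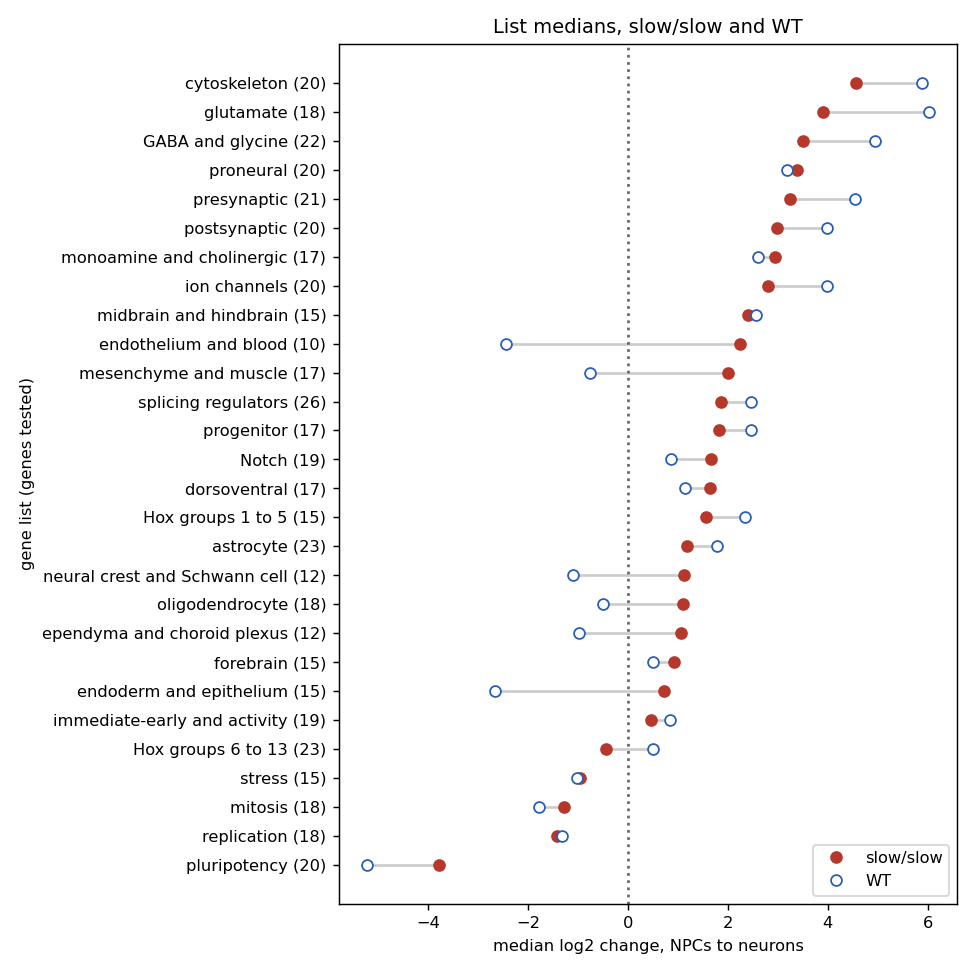
Median log2 change from NPCs to neurons of the tested members of each of the 28 gene lists, in slow/slow cells (filled points) and WT cells (open points), with a dotted line at 0. The slow/slow medians ran from -3.78 for pluripotency genes to 4.56 for neuronal cytoskeleton genes, and those of the synaptic lists lay to the left of the WT points.

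Progenitor markers were present after replating and mostly higher than in NPCs, some of them from low NPC levels. A mean of at least 10 CPM was reached by 13 of the 17 in NPCs and by all 17 in neurons. Of the 17 progenitor markers tested, 15 rose and 2 fell, with a median log2 change of 1.82, and the summed level of the list went from 1074 to 1269 CPM in NPCs to 3679.6 to 4142 CPM in neurons. Fabp7, a lipid-binding protein of radial glia, had 3.53, 5.80 and 7.74 CPM in the NPC libraries and 583, 629 and 665 CPM in the neuron libraries. It rose by 6.80 ± 0.58 on the log2 scale (edgeR FDR 1.6e-09), the largest change of the list, and no NPC library came near a neuron library. Vim, the intermediate filament of progenitors and astrocytes, had the highest CPM of the list in neurons, at 299.8, 278 and 360.3 CPM in the NPC libraries and 998, 1176 and 1128 CPM in the neuron libraries. Nes, which encodes nestin, was at 83.6, 80.5 and 115 CPM in the NPC libraries and 339, 373 and 390.4 CPM in the neuron libraries. Both were higher in each neuron library than in every NPC library, with log2 changes of 1.82 ± 0.14 (edgeR FDR 2.1e-10) and 1.98 ± 0.13 (edgeR FDR 4.4e-11). Among the transcription factors, Pax6 rose from 40.9 ± 3.96 to 80.8 ± 5.60 CPM (log2 0.99 ± 0.23, edgeR FDR 7.2e-04) and Sox9, a factor of radial glia, from 2.70 ± 0.461 to 67.4 ± 5.66 CPM. Lhx2, a LIM-homeobox factor of the early forebrain and eye field, rose from 1.87 ± 0.232 to 44.9 ± 4.48 CPM. Sox2, the factor that maintains neural progenitors, was one of the 2 genes that fell, from 209.6 ± 5.79 to 176 ± 11.1 CPM, which is a log2 change of -0.25 ± 0.09 (edgeR FDR 0.02, and 0.066 or 0.053 without NPC replicate 1 or neuron replicate 1). The other was Hes1, a Notch target, at 36.9 ± 3.18 to 23.3 ± 0.780 CPM. Sox1 was not analysed here.

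Among Notch genes most rose, but targets and receptors each moved in both directions, with Hes1 among the falls. Of 19 tested, 12 rose, 5 fell and 2 did not pass. Hes5, a bHLH repressor that Notch switches on in progenitors, stood at 0.647, 1.24 and 1.65 CPM in the NPC libraries and 80.2, 107 and 114 CPM in the neuron libraries. Each neuron library exceeded every NPC library, by a log2 change of 6.46 ± 0.29 (edgeR FDR 7.1e-14). Another target, Heyl, rose from 0.396 ± 0.0922 to 27.2 ± 1.28 CPM, and Nrarp, a negative feedback protein of the pathway, from 9.68 ± 1.49 to 133 ± 17.1 CPM. The ligand genes Dll1, Dll3 and Dll4 rose to 139.7, 71.2 and 9.58 CPM, and Jag1 to 75.8 CPM. The receptor gene Notch1 rose from 53.7 ± 2.65 to 201 ± 10.7 CPM, whereas Notch2 fell from 91.8 ± 2.24 to 58.7 ± 6.53 CPM and Notch3 from 202 ± 8.16 to 159 ± 8.81 CPM. The Notch3 call (log2 -0.35 ± 0.15, edgeR FDR 0.048) was lost when any 1 of the 6 libraries was left out, with edgeR FDR values of 0.056 to 0.12, and with the size factors of DESeq2, at an edgeR FDR of 0.073. Rbpj, the DNA-binding partner of the receptors, fell from 214 to 129 CPM. Hes3, a further bHLH repressor of early neuroepithelium, fell from 5.94 ± 1.41 to 1.87 ± 0.282 CPM.

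Rbpj binds DNA at a short element with the core GTGGGAA. This core was searched on both strands of RefSeq promoters (GRCm38.p6, 250 bases before to 50 after the start), and 1958 of 27025 genes (7.25%) held it. Of the 14 Notch genes with a promoter in that table, 3 did: Hes5, Hey2, a hairy-related repressor that rose from 1.00 ± 0.164 to 4.98 ± 0.471 CPM, and Lfng, a glycosyltransferase that modifies Notch, which rose from 13.8 ± 1.44 to 39.1 ± 2.77 CPM. Their promoters are shown because they are the members of the list with a match, and capitals mark it. Hes5 (chr4:154960673-154960972, plus strand) matched at bases 25 to 31, as the reverse complement, and 168 to 174. Hey2 (chr10:30842734-30843033, minus strand) matched at bases 44 to 50, as the reverse complement, and 247 to 253, and Lfng (chr5:140607091-140607390, plus strand) at bases 142 to 148. The element was chosen after values were seen, and a match of these letters is a description of the sequence and not a bound site.
Hes5: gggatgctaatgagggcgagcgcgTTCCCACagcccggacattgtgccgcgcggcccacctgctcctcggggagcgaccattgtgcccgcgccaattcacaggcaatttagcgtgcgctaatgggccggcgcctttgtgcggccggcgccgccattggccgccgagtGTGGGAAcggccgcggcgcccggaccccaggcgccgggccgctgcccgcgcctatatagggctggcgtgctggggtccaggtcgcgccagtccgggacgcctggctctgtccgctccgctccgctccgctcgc
Hey2: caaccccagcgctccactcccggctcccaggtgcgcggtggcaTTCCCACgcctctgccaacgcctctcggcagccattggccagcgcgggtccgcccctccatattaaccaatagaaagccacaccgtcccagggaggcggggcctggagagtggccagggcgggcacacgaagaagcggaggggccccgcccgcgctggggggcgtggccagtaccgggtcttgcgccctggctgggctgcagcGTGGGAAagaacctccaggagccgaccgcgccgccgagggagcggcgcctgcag
Lfng: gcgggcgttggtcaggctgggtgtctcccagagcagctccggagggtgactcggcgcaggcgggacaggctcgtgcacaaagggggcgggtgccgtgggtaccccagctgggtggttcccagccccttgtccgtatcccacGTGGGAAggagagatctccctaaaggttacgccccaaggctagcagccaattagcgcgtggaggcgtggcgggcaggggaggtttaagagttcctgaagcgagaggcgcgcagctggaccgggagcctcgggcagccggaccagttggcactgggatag

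Genes of the proneural list, which holds factors that drive progenitors out of the cycle and other genes of that step, also rose. This list shares Dll1, Dll3 and Dll4 with the Notch list, and the Notch and progenitor lists share Notch1, Hes1 and Hes5. The counts of these lists are therefore not separate results. Of 20 genes of the proneural list tested, 19 rose and 1 fell, with a median log2 change of 3.40. Neurog2 was at 0.168, 0.549 and 0.345 CPM in the NPC libraries and 39.5, 51.3 and 54.0 CPM in the neuron libraries. All neuron values lay far above all NPC values, with a log2 change of 7.17 ± 0.40 (edgeR FDR 2.5e-12). Nhlh2, a bHLH factor of newly born neurons, reached the highest level of the list, 205 CPM from 0.597 CPM in NPCs, and Myt1, a zinc-finger factor that opposes Notch targets, rose from 0.453 ± 0.203 to 189 ± 7.82 CPM. Neurod6, found in maturing excitatory neurons, had no count in any NPC library and stood at 2.09, 1.98 and 2.44 CPM in neurons, at least 112-fold higher than a floor of 3 counts over the 3 NPC libraries. The one gene that fell was Eomes, a T-box factor of intermediate progenitors and of early mesoderm, from 6.48 ± 1.04 to 2.55 ± 0.685 CPM.

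Cell cycle transcripts fell without being lost. All 18 mitosis genes fell (median log2 -1.29), and of 18 replication genes 17 fell (median -1.43). Mki67, the proliferation marker, stood at 216, 280.1 and 259.6 CPM in the NPC libraries and 174, 154 and 136 CPM in the neuron libraries. Top2a, the mitotic topoisomerase, had 845, 924 and 859.8 CPM in the NPC libraries and 349, 339 and 319 CPM in the neuron libraries. The groups did not overlap for either gene, and the neuron libraries kept a mean of 154 CPM of Mki67 and 336 CPM of Top2a. Ccne1, the G1/S cyclin, had the largest fall among replication genes, by 2.22 ± 0.18 on the log2 scale (edgeR FDR 8.0e-10). E2f1, an S-phase transcription factor, was the member that did not pass, at 40.9 ± 1.42 to 42.2 ± 1.10 CPM.

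Pluripotency genes were still present in NPCs and fell in all 20 cases. Pou5f1, which encodes Oct4, was at 791, 701 and 716 CPM in the NPC libraries and 32.5, 37.0 and 40.6 CPM in the neuron libraries. Every neuron library lay at or below 40.6 CPM, against at least 701 CPM in NPCs. Dnmt3l and Dppa2 fell most, by 5.99 ± 0.41 and 5.85 ± 0.42 on the log2 scale. The smallest falls were those of Fgf5 and Dppa3, at -1.13 ± 0.19 and -1.14 ± 0.26. Lin28a, the RNA-binding protein of early progenitors, kept the highest level of the list in neurons at 99.5 ± 20.5 CPM.

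Neuronal cytoskeleton and adhesion genes made up the list with the highest median. Of 20 tested, 19 rose, with a median log2 change of 4.56. Dcx, the microtubule protein of migrating neurons, stood at 1.15, 3.65 and 4.02 CPM in the NPC libraries and 1014, 998 and 935 CPM in the neuron libraries. Map2, the dendritic microtubule protein, had 7.58, 9.98 and 8.77 CPM in the NPC libraries and 549, 598 and 570.5 CPM in the neuron libraries. Mapt, which encodes tau, was at 0.854, 1.00 and 1.28 CPM in the NPC libraries and 80.1, 89.0 and 85.7 CPM in the neuron libraries. For all 3 genes the neuron libraries lay within a narrow band far above the NPC libraries, with log2 changes of 8.45 ± 0.64, 6.03 ± 0.28 and 6.37 ± 0.17. Tubb3 and Stmn2, which encode neuronal tubulin and the growth-cone protein stathmin-2, were already present in NPCs and rose from 96.3 ± 8.55 to 1191 ± 95.4 CPM and from 147 ± 9.72 to 508 ± 5.70 CPM. Rbfox3, whose product is the nuclear antigen NeuN, rose from 0.670 ± 0.130 to 19.7 ± 1.29 CPM. Nefh, the heavy neurofilament of mature axons, fell from 20.9 ± 0.434 to 3.74 ± 0.305 CPM (log2 -2.48 ± 0.36, edgeR FDR 3.6e-06), unlike the light and medium chains Nefl and Nefm, whose exons overlap each other on opposite strands and which reached 701 and 139 CPM. Neuronal markers were thus present in every neuron library, while markers of mature neurons were mixed, with Rbfox3 higher and Nefh lower than in NPCs.

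**Figure D2:**
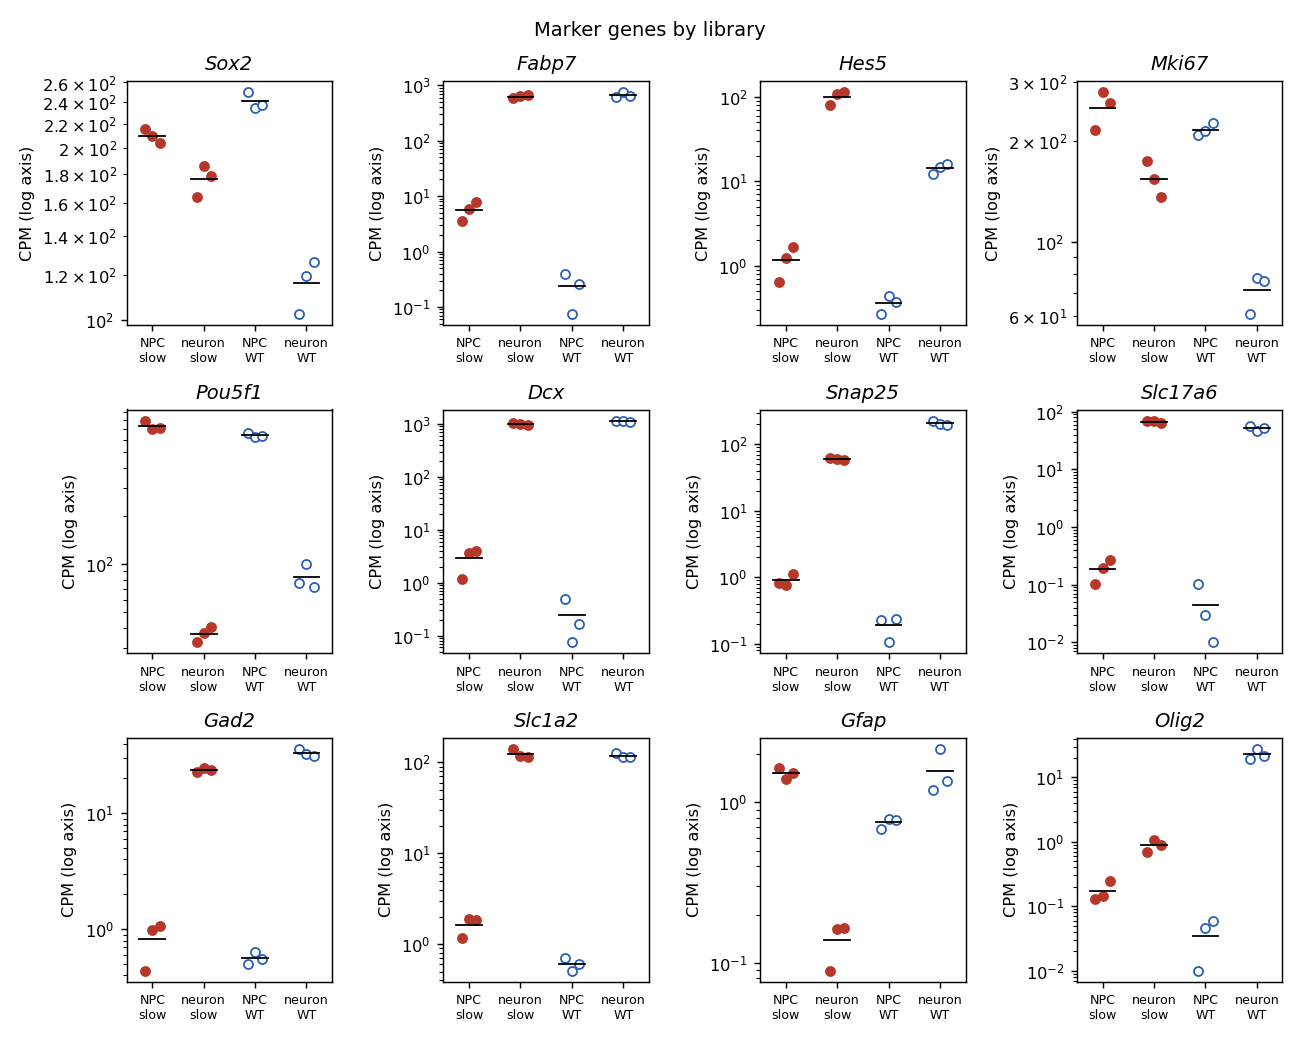
Levels of 12 marker genes in CPM on a log axis, 1 point per library, for slow/slow NPCs and neurons (filled) and WT NPCs and neurons (open), with a bar at each mean; values below 0.01 CPM are drawn at 0.01. Fabp7, Dcx, Slc17a6 and Gad2 rose in every slow/slow neuron library, Gfap fell, and Sox2 and Pou5f1 fell to means of 176 and 36.7 CPM.

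Transcripts of both sides of the synapse rose. All 21 presynaptic genes rose (median log2 3.25), as did all 20 postsynaptic and cell-contact genes (median 2.98). Snap25, a SNARE protein of vesicle fusion, stood at 0.828, 0.764 and 1.13 CPM in the NPC libraries and 61.9, 60.3 and 58.4 CPM in the neuron libraries. Syp, the vesicle protein synaptophysin, had 4.28, 4.46 and 4.31 CPM in the NPC libraries and 85.3, 91.0 and 94.7 CPM in the neuron libraries. Dlg4, the postsynaptic scaffold PSD-95, was at 7.17, 7.78 and 8.60 CPM in the NPC libraries and 135, 147 and 147 CPM in the neuron libraries. These 3 genes were separated between stages by 6.06 ± 0.33, 4.38 ± 0.27 and 4.19 ± 0.21 on the log2 scale. The calcium sensor genes Syt4 and Syt1 rose to 123 and 58.7 CPM, and Syn1, a vesicle-tethering synapsin, to 60.3 CPM. The smallest presynaptic change was that of the SNARE gene Stx1a, at 1.54 ± 0.10. On the receiving side Nlgn1, an adhesion protein of excitatory contacts, went from a summed 3 counts in NPCs to 5.96, 6.80 and 6.63 CPM, a ratio of 344 with a 95% counting interval of 117 to 1670.0. Its partner gene Nrxn3 rose from 0.0450 ± 0.0241 to 9.67 ± 0.655 CPM. Homer1 changed least, from 18.0 ± 1.19 to 24.8 ± 1.34 CPM (log2 0.46 ± 0.14).

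Glutamatergic and inhibitory genes rose side by side. Of 18 glutamate genes 16 rose, 1 fell and 1 did not pass (median log2 3.90), and of 22 GABA and glycine genes 20 rose, 1 fell and 1 did not pass (median 3.51). Slc17a6, the vesicular glutamate transporter VGLUT2 of brainstem and spinal neurons, stood at 0.104, 0.191 and 0.271 CPM in the NPC libraries and 70.4, 68.4 and 64.1 CPM in the neuron libraries. Gad2, a GABA-synthesising enzyme, had 0.440, 0.978 and 1.06 CPM in the NPC libraries and 22.7, 24.6 and 23.7 CPM in the neuron libraries. Slc6a5, the glycine transporter GlyT2 that marks glycinergic neurons, was at 0.375, 0.263 and 0.296 CPM in the NPC libraries and 20.6, 23.4 and 21.8 CPM in the neuron libraries. No NPC library exceeded 1.06 CPM for these genes and no neuron library was below 20.6 CPM, with log2 changes of 8.59 ± 0.34, 4.89 ± 0.39 and 6.10 ± 0.51. Per transcript length, the authors' mean RPKM in slow/slow neurons was 17.4 for Slc17a6, 8.01 for the vesicular GABA and glycine transporter Slc32a1, 7.29 for Gad1, 4.65 for Gad2 and 3.44 for Slc6a5. Slc17a7, the cortical transporter VGLUT1, fell from 3.20 ± 0.103 to 0.864 ± 0.0394 CPM. The AMPA receptor gene Gria2 rose from 0.134 ± 0.0922 to 47.5 ± 3.45 CPM (log2 8.59 ± 0.42). Slc12a5, the chloride extruder KCC2 that makes GABA inhibitory, rose from 3.91 ± 0.147 to 67.6 ± 1.06 CPM. Grin2d, an NMDA receptor subunit of immature neurons, did not pass at 5.87 ± 0.439 to 6.83 ± 0.366 CPM, and Slc6a9, the glial glycine transporter, fell from 13.4 ± 2.36 to 7.16 ± 0.449 CPM.

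Rest, the repressor that silences neuronal genes in other cells, was singled out after its values were seen and is given without a test. It stood at 167, 159 and 169 CPM in the NPC libraries and 47.5, 44.8 and 45.2 CPM in the neuron libraries. The granin genes Scg2, Scg3, Chga and Chgb, secretory vesicle genes chosen in the same way, were higher in every neuron library than in any NPC library, at means of 47.8, 123, 32.2 and 133 CPM.

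Monoamine genes rose at low levels, and cholinergic genes hardly did. Of 17 tested, 13 rose, 2 fell and 2 did not pass. Th, the first enzyme of dopamine synthesis, rose from 0.0961 ± 0.0718 to 8.60 ± 0.860 CPM. The serotonergic genes Tph2 and Slc6a4 rose from 0.323 ± 0.131 to 7.21 ± 1.10 CPM and from 1.05 ± 0.111 to 20.3 ± 3.19 CPM. Every neuron library exceeded every NPC library for Th, Tph2 and Slc6a4. Chat, the acetylcholine-synthesising enzyme, did not pass at 1.24 ± 0.317 to 1.13 ± 0.0685 CPM, and the choline transporter gene Slc5a7 rose to 1.11 CPM. Ddc, the enzyme that follows Th, fell from 21.6 ± 0.966 to 6.34 ± 0.361 CPM and the dopamine transporter gene Slc6a3 from 0.357 ± 0.0829 to 0.0506 ± 0.0117 CPM. Slc18a3 was not analysed here.

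Ion channel genes were gained broadly, with 19 of 20 rising and 1 not passing (median log2 2.80). Scn2a, a sodium channel of young axons, had 0.556, 0.788 and 0.838 CPM in the NPC libraries and 32.0, 29.2 and 27.2 CPM in the neuron libraries. Kcnd2, an A-type potassium channel, stood at 0.0776, 0.143 and 0.0493 CPM in the NPC libraries and 7.60, 6.81 and 7.65 CPM in the neuron libraries. The libraries of each stage lay close together, and the changes were 5.37 ± 0.17 and 6.35 ± 0.28 on the log2 scale. The calcium channel gene Cacna1a lay at the other end and did not pass, at 0.22 ± 0.10 (edgeR FDR 0.068, and 0.031 with the size factors of DESeq2).

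Most astrocyte genes rose while some of the most abundant fell, as did the astrocyte filament gene Gfap. Of 23 tested, 15 rose, 6 fell and 2 did not pass (median log2 1.18), and the summed level of the list was lower in neurons, at 1015 to 1043 CPM against 1309.7 to 1512 CPM in NPCs. Slc1a2, the glutamate transporter GLT-1, had 1.16, 1.91 and 1.85 CPM in the NPC libraries and 140.1, 118 and 115 CPM in the neuron libraries. Aqp4, the water channel of astrocyte endfeet, was at 0.0647, 0 and 0.0739 CPM in the NPC libraries and 3.43, 3.86 and 3.21 CPM in the neuron libraries. Sparcl1, a secreted synaptogenic protein, stood at 0.854, 0.525 and 1.06 CPM in the NPC libraries and 37.7, 38.8 and 38.6 CPM in the neuron libraries. For each of them all neuron libraries were far above all NPC libraries, with log2 changes of 6.27 ± 0.37, 6.09 ± 0.66 and 5.55 ± 0.23. Fgfr3, Acsbg1 and Nfia, genes of the radial glia to astrocyte transition, rose to 153, 24.3 and 26.9 CPM. Gfap had 1.64, 1.41 and 1.53 CPM in the NPC libraries and 0.0894, 0.162 and 0.164 CPM in the neuron libraries. It fell by 3.47 ± 0.46 on the log2 scale (edgeR FDR 8.6e-07). Apoe, a lipid carrier, fell from 409 ± 62.8 to 55.1 ± 3.62 CPM, the gap-junction gene Gja1 from 482 ± 40.1 to 154 ± 7.72 CPM, and the glutamine synthetase gene Glul from 379 ± 39.7 to 214 ± 4.41 CPM. Aldh1l1 and Aldoc, enzymes that label astrocytes, fell to 7.28 and 9.16 CPM. S100b and Agt were too low to test.

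Oligodendrocyte-lineage genes moved in both directions, and most were low: 3 of the 20 listed had a mean of at least 10 CPM in NPCs and 4 in neurons. Of 18 tested, 10 rose, 4 fell and 4 did not pass, and the summed level of the list went from between 212 and 257 CPM to between 133 and 153 CPM. Olig2, the lineage factor, was at 0.129, 0.143 and 0.246 CPM in the NPC libraries and 0.685, 1.06 and 0.904 CPM in the neuron libraries, and Olig1, its neighbour, at 0.272, 0.310 and 0.493 CPM in the NPC libraries and 0.194, 0.324 and 0.137 CPM in the neuron libraries. The Olig2 values rose (log2 2.39 ± 0.52, edgeR FDR 3.3e-04) but none passed 1.06 CPM, and Olig1 did not pass (edgeR FDR 0.16, and 0.041 without neuron replicate 2). Pdgfra, the receptor of oligodendrocyte precursors and of mesenchyme, did not pass at 39.7 ± 6.37 to 40.9 ± 11.1 CPM. Among myelin genes Mbp rose from 2.33 ± 0.139 to 6.00 ± 0.462 CPM and Mog from 0.243 ± 0.0259 to 1.75 ± 0.0581 CPM, and Mobp went from 107 counts in the NPC libraries to 3 in the neuron libraries. Myrf, the myelin regulatory factor, which is also made outside the nervous system, fell from 141 ± 16.9 to 16.9 ± 1.92 CPM. Sox10, which marks oligodendrocyte precursors and neural crest alike, rose from 1.88 ± 0.344 to 7.07 ± 0.892 CPM. Enpp6 and Opalin were too low to test.

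Genes of regional identity moved in both directions along both axes of the neural tube. Of 15 forebrain genes 7 rose, 3 fell and 5 did not pass. Lhx5, of the diencephalon and spinal cord, rose from 2.58 ± 0.544 to 65.5 ± 13.2 CPM. Of 15 midbrain and hindbrain genes 9 rose, 5 fell and 1 did not pass: Pax2 rose from 0.499 ± 0.220 to 20.2 ± 2.76 CPM and En1 from 2.11 ± 0.100 to 11.1 ± 1.55 CPM, whereas Otx2, a fore- and midbrain factor also present in the epiblast, fell from 57.4 ± 13.9 to 13.4 ± 0.316 CPM and Gbx2 from 119 ± 5.49 to 25.6 ± 1.32 CPM. En2 and Egr2 were among the falls, and neither passed without NPC replicate 3, with edgeR FDR values of 0.081 and 0.055. En2 was also lost without NPC replicate 1 or 2 or neuron replicate 1 or 2. Along the dorsoventral axis 13 of 17 genes rose, 2 fell and 2 did not pass, with Dbx1, of mid-level progenitors, at 0.285, 0.525 and 0.493 CPM in the NPC libraries and 44.1, 61.9 and 53.6 CPM in the neuron libraries. Dorsal and ventral genes both rose, Pax3 from 6.90 ± 1.05 to 81.2 ± 4.48 CPM and Shh, the floor-plate signal, from 0.487 ± 0.113 to 28.9 ± 1.67 CPM. Olig3, a dorsal hindbrain and spinal progenitor factor, had the largest fall of that list, from 75.4 ± 6.95 to 3.86 ± 0.746 CPM.

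The Hox genes of the hindbrain and neck, paralogue groups 1 to 5, rose in 9 of 15 cases, fell in 4 and did not pass in 2. Hoxb3 rose from 12.6 ± 2.44 to 69.6 ± 2.37 CPM and Hoxa2 from 14.0 ± 1.94 to 84.2 ± 6.22 CPM, while Hoxb1, an early hindbrain gene, fell from 25.8 ± 3.37 to 6.12 ± 1.41 CPM. Of 23 genes of groups 6 to 13, 9 rose, 8 fell and 6 did not pass. The thoracic genes Hoxb9 and Hoxc8 rose, to 68.4, 38.7 and 32.9 CPM and to 8.71, 5.95 and 4.88 CPM in the 3 neuron libraries. Neuron replicate 1 was the highest for both. Hoxa10, a lumbar gene, fell from 8.95 ± 1.04 to 0.225 ± 0.120 CPM, and genes of group 13 that were tested lay below 0.329 CPM in each neuron library.

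Markers of other tissues were part of the change as well. Of 17 mesenchyme and muscle genes 11 rose, 5 fell and 1 did not pass, and their sum went from 243 to 343 CPM in NPCs to 702 to 746 CPM in neurons. Col3a1, a fibrillar collagen, held most of that sum in neurons, at 4.04, 3.36 and 4.90 CPM in the NPC libraries and 429, 413 and 440.3 CPM in the neuron libraries. Lum, a proteoglycan of connective tissue, went from 4 counts in 1 NPC library to 34.8, 34.5 and 34.0 CPM. The smooth muscle genes Acta2 and Tagln fell to 11.2 and 23.8 CPM, and Myod1 and Myog stayed below 1 CPM in each library. Of 10 endothelial and blood genes tested 7 rose, 2 fell and 1 did not pass, with a sum of 35.8 to 47.5 CPM in NPCs and 126 to 157 CPM in neurons, with Cdh5, the endothelial cadherin, highest at 78.3, 63.6 and 69.5 CPM. Ptprc, Aif1 and Cx3cr1, which mark leukocytes and microglia, were at or near 0. Of 15 endoderm and epithelial genes 7 rose, 5 fell and 3 did not pass, and their sum went from 978 to 1251 CPM to 520.0 to 534 CPM. Gata4, an endoderm factor, fell from 68.5 ± 9.98 to 10.1 ± 5.15 CPM and Cdh1, which encodes E-cadherin, from 411 ± 50.4 to 89.2 ± 2.10 CPM. Afp, of yolk sac and fetal liver, rose from 0.977 ± 0.171 to 9.60 ± 2.03 CPM, and Trp63, of stratified epithelium, from 0.605 ± 0.103 to 3.48 ± 0.116 CPM. Of 12 neural crest and Schwann cell genes 6 rose, 2 fell and 4 did not pass, and of 12 ependymal and choroid plexus genes 6 rose, 4 fell and 2 did not pass. Aqp1, a choroid plexus channel, differed between the neuron libraries, at 12.6, 6.34 and 1.97 CPM. The part of these cells in the neuronal and glial values was not tested.

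By fitted log2 change, most of the largest rises lay in placental genes, which had few or no counts in NPCs. Of the 10 genes with the largest fitted rise and at least 10 CPM, 7 belonged to placental families: the cathepsins Ctsj, Ctsq and Ctsr, the trophoblast protein Tpbpa and the prolactin-like hormones Prl2a1, Prl7b1 and Prl7d1, all on chromosome 13. Ctsj stood at 0.0129, 0.0239 and 0.0246 CPM in the NPC libraries and 116, 101 and 75.7 CPM in the neuron libraries. Tpbpa, a marker of spongiotrophoblast, had 0, 0.0239 and 0 CPM in the NPC libraries and 58.1, 43.3 and 33.3 CPM in the neuron libraries. Ctsq had no count in NPCs and stood at 16.4, 12.1 and 9.32 CPM in neurons, at least 700.0-fold above the floor of 3 counts over the NPC libraries. Neuron replicate 1 was highest and replicate 3 lowest for each of these 3 genes, and for Ctsj the ratio of neurons to NPCs was 5410.0, with a 95% counting interval of 1851 to 26230.0. Also among the 10 were Lum and 1600012P17Rik, a non-coding transcript whose exons overlap Pappa2, a placental protease gene, on the same strand, and which stood at 15.4, 12.6 and 9.26 CPM from no count in NPCs. Because reads of such families can be split between near-identical copies, single members are uncertain.

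Once these genes had been seen, their families were listed whole, without a test. The 22 prolactin family genes with counts summed to 0.0477 to 0.0739 CPM in slow/slow NPCs, 101 to 179 CPM in slow/slow neurons and 3.53 to 4.17 CPM in WT neurons. The 10 placental cathepsin and Tpbp genes summed to 0.0955 to 0.173, 133 to 213 and up to 19.7 CPM in the same groups. The 9 transcription factors of trophoblast, listed in the same way, summed to 40.4 to 46.4, 60.1 to 72.2 and at least 97.1 CPM. Of these, Cdx2 was at 2.55, 2.22 and 2.81 CPM in the NPC libraries and 3.07, 1.93 and 2.96 CPM in the neuron libraries, Gcm1 was lower in neurons, at 0.0547 against 0.820 CPM, and Elf5 was below 1 CPM in each library. A set of 21 interferon-stimulated genes, also listed after the values were seen, summed to 203 to 226 CPM in slow/slow NPCs, 487 to 628 CPM in slow/slow neurons and 87.9 to 95.7 CPM in WT neurons. In WT NPCs the same set summed to 401 to 446 CPM, so it was higher after replating in slow/slow cells and lower in WT cells.

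**Figure D3:**
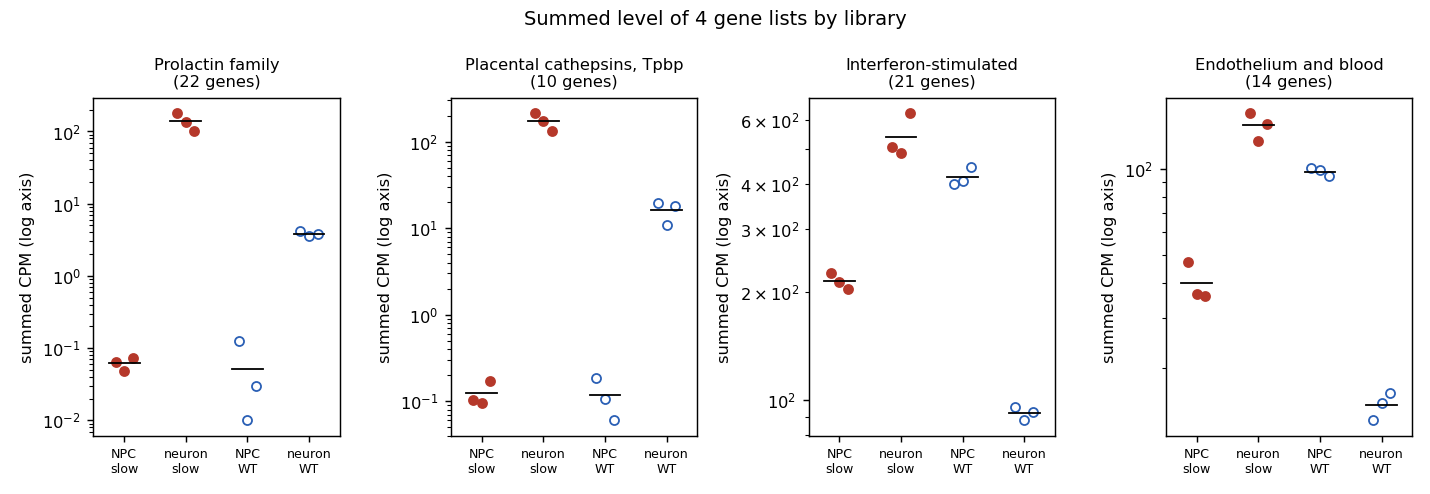
Summed level of 4 gene lists in CPM on a log axis, 1 point per library, for slow/slow and WT NPCs and neurons: prolactin family, placental cathepsin and Tpbp genes, interferon-stimulated genes (these 3 chosen after the values were seen) and endothelial and blood genes; values below 0.01 CPM are drawn at 0.01. The slow/slow neurons lay above the other 3 groups in each panel.

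The largest falls among genes with at least 10 CPM took in genes of visceral endoderm, germ cells and early pluripotency. Cubn, the endocytic receptor of visceral endoderm and kidney, had 575, 429 and 415 CPM in the NPC libraries and 3.54, 2.14 and 2.91 CPM in the neuron libraries. Slc47a1, an organic cation exporter, fell from 11.4 ± 0.799 to 0.177 ± 0.0611 CPM. Stra8 and Tex11, meiosis genes, fell from 33.1 ± 2.00 to 0.430 ± 0.132 CPM and from 10.1 ± 1.04 to 0.157 ± 0.0863 CPM. Capn3, a calpain that shares exons with Ganc, and Mymx, a myoblast fusion peptide, fell to 0.365 and 0.444 CPM. Dnmt3l and Dppa2, given above, and Gdf3, a pluripotency growth factor, were also among them.

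Polr2a itself, the mutated gene, was at 380.4, 364 and 380.2 CPM in the NPC libraries and 176, 169.6 and 158 CPM in the neuron libraries. All neuron libraries were below all NPC libraries, with a log2 change of -1.16 ± 0.17 (edgeR FDR 2.6e-06). The WT libraries stood at 277, 335 and 306 CPM in NPCs and 307, 330.4 and 332 CPM in neurons, and the slow and WT courses differed by -1.24 ± 0.23 (edgeR FDR 1.6e-04).

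The slow course was then set against the WT course in the same model. In WT cells 13336 genes (80.2%) changed, and for 9161 (55.1%) the change differed between the genotypes, being more positive in slow/slow cells for 4112 (24.7%) and more negative for 5049 (30.4%). With upper-quartile scaling the median difference over all genes shifted by 0.184 and the split turned to 5084 and 3786, and the counts that follow use the TMM scaling. Neuronal genes rose less in slow/slow cells in most cases: 16 of 20 cytoskeleton, 16 of 21 presynaptic, 13 of 20 postsynaptic, 10 of 18 glutamate, 14 of 22 inhibitory and 13 of 20 channel genes differed downwards, against 1, 1, 1, 3, 1 and 1 upwards. Of the proneural genes 7 of 20 differed upwards and 3 downwards, with a median difference of 0.91, and sums of 1255 to 1487 CPM in slow/slow and 467 to 487 CPM in WT neurons. NPC levels differed between the genotypes as well. Dcx was at 983 and 1118 CPM in slow/slow and WT neurons but at 2.94 and 0.247 CPM in the NPCs, and Slc17a6 at 67.6 and 52.1 CPM in neurons and 0.189 and 0.0447 CPM in NPCs. Snap25 stood at 60.2 ± 1.78 CPM in slow/slow and 208 ± 17.8 CPM in WT neurons, with a difference of -4.03 ± 0.51 between the courses (edgeR FDR 1.8e-06). Gap43, the growth-cone protein, differed by -3.17 ± 0.32 (edgeR FDR 1.0e-07). Cntn2, an axonal adhesion protein of early-born neurons, was the cytoskeleton-list gene that went the other way, at 182 ± 15.1 CPM in slow/slow and 39.6 ± 3.62 CPM in WT neurons (difference 3.88 ± 0.37, edgeR FDR 5.3e-08). Among progenitor genes 6 differed upwards and 7 downwards. Notch1 and Lhx2 rose more in slow/slow cells, with differences of 1.62 ± 0.11 and 4.06 ± 0.29, and Fabp7 and Cdh2, the neural cadherin, rose less, with differences of -4.71 ± 0.88 and -3.57 ± 0.50. Both Fabp7 and Cdh2 were lower in WT than in slow/slow NPCs, at 0.242 and 14.3 against 5.69 and 117 CPM. Of the mitosis genes 8 fell less in slow/slow cells and none fell more (14 and none with upper-quartile scaling), and of the pluripotency genes 10 differed upwards and 5 downwards.

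Genes of other tissues differed upwards more often than downwards: 7 of 10 endothelial and blood, 8 of 17 mesenchyme and muscle, 11 of 15 endoderm and epithelial and 8 of 12 neural crest genes differed upwards, against 1, 4, 0 and 2 downwards. An upward difference can be a smaller fall in slow/slow cells as well as a rise. The endoderm and epithelial sum fell in both genotypes, from 1769 to 1862 CPM to 257 to 315 CPM in WT cells and, as given above, less in slow/slow cells. The mesenchyme and muscle sum was already higher in WT NPCs, at 549 to 611 CPM, than in slow/slow NPCs, at 243 to 343 CPM. Pecam1, an endothelial adhesion protein, went from 19.3 ± 3.58 to 24.4 ± 2.36 CPM in slow/slow cells and from 74.7 ± 3.51 to 1.55 ± 0.136 CPM in WT cells (difference 5.91 ± 0.19, edgeR FDR 7.0e-14).

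Glial and regional genes also parted. Of the oligodendrocyte-lineage genes 8 of 18 differed upwards and 3 downwards, with a median log2 change of 1.10 in slow/slow and -0.50 in WT cells. Olig2 was among those downwards (difference -6.75 ± 0.88). The summed level of the list in neurons was 133 to 153 CPM in slow/slow and 129 to 161 CPM in WT cells. Of the astrocyte genes 13 of 23 differed downwards and 6 upwards. Among those downwards was Tnc, an extracellular matrix protein, at 25.2 ± 2.04 CPM in slow/slow and 97.5 ± 8.58 CPM in WT neurons (difference -2.92 ± 0.28, edgeR FDR 5.4e-08). Th differed by 5.54 ± 0.71, with 0.519 ± 0.0430 CPM in WT neurons, and Shh by -5.62 ± 0.65, with 153 ± 7.56 CPM there. Pax3 differed by 3.16 ± 0.40, with 4.15 ± 0.612 CPM there. Of the Hox genes, 10 of 15 in groups 1 to 5 and 8 of 23 in groups 6 to 13 differed downwards, against 1 and 1 upwards. Forebrain, midbrain and hindbrain, and dorsoventral genes differed upwards in 6, 4 and 6 cases and downwards in 4, 8 and 6. The sum of Hox groups 1 to 5 was 157 to 193 CPM in slow/slow NPCs and 55.3 to 58.5 CPM in WT NPCs. Chromosome 15 was set apart in WT cells, where the median log2 change of its genes was -0.56 and that of the other chromosomes lay between -0.15 and 0.31, so differences of genes on it, such as Slc1a3, Sox10 and the Hoxc genes, include that shift.

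Of the 10 genes with the most positive difference between the courses, 7 were interferon-response genes, Oasl2, Usp18, Rtp4, Ifi27, Oas1b, Ifit1 and Rsad2, and the others were Lum, Tie1 and 1600012P17Rik. The last had the largest fitted difference, which depends on the prior count because slow/slow NPCs had no count of it. Usp18, a negative regulator of interferon signalling, stood at 0.440, 0.167 and 0.345 CPM in the NPC libraries and 40.9, 40.2 and 64.1 CPM in the neuron libraries, against 1.10, 1.04 and 1.27 CPM in WT NPCs and 0.414, 0.754 and 0.741 CPM in WT neurons. Oasl2, an antiviral oligoadenylate synthetase-like protein, went from 1.57 ± 0.231 to 23.5 ± 5.40 CPM in slow/slow cells and from 28.0 ± 2.40 to 0.336 ± 0.0716 CPM in WT cells. Tie1, an endothelial receptor, went from 0.774 ± 0.167 to 10.5 ± 2.08 CPM in slow/slow and from 3.48 ± 0.313 to 0.0512 ± 0.0444 CPM in WT cells. Oasl2 and Tie1 thus moved in opposite directions in the genotypes, while Usp18 stayed at or below 1.27 CPM in WT cells. The 10 with the most negative difference were Nkx1-2, 1500015O10Rik, Csmd1, Lef1, Gria2, Zfp804a, Ncam2, Wnt8a, Epha3 and Olig2. Nkx1-2, a homeobox gene of caudal progenitors, had 5.55, 7.47 and 7.20 CPM in the NPC libraries and 6.08, 7.19 and 7.59 CPM in the neuron libraries, against 0.104, 0.0755 and 0.0450 CPM in WT NPCs and 48.5, 59.7 and 48.1 CPM in WT neurons. Lef1, a transcription factor of Wnt signalling, and Wnt8a, a Wnt ligand of the early embryo, fell in slow/slow cells, from 71.3 ± 2.86 to 7.99 ± 1.05 CPM and from 74.4 ± 7.15 to 2.67 ± 1.13 CPM, where WT cells went from 1.22 ± 0.194 to 18.7 ± 1.36 CPM and from 3.88 ± 0.381 to 17.2 ± 3.75 CPM. Csmd1, Ncam2 and Gria2 had no count in WT NPCs, so their fitted differences depend on the prior count. Their levels in neurons were 4.49, 8.53 and 47.5 CPM in slow/slow and 23.5, 27.6 and 106 CPM in WT cells.

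Splicing regulators changed with the neuronal programme. Of 26 tested, 18 rose, 4 fell and 4 did not pass. Ptbp1, which represses neuronal exons in other cells, was at 954, 909 and 939 CPM in the NPC libraries and 290.0, 294 and 277 CPM in the neuron libraries. Its neuronal paralogue Ptbp2 rose from 96.2 ± 8.67 to 280.2 ± 7.26 CPM. Srrm4, the activator of neuronal microexons, stood at 3.40, 4.18 and 5.03 CPM in the NPC libraries and 93.8, 96.1 and 88.9 CPM in the neuron libraries. The stages did not overlap for Ptbp1, Ptbp2 or Srrm4, with log2 changes of -1.70 ± 0.13, 1.54 ± 0.08 and 4.48 ± 0.29. Rbfox1, Celf3 and Nova1, neuronal RNA-binding proteins, reached 49.1, 158 and 131 CPM. The epithelial regulators Esrp1 and Esrp2 fell to 11.8 and 6.09 CPM.

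Exon inclusion was measured as percent spliced in (PSI), the share of junction reads that include the exon. Of 21421 exons with enough reads, 797 (3.72%) changed by more than 10 points with a posterior probability above 0.95, 420 (1.96%) towards inclusion and 377 (1.76%) towards skipping. This probability comes from beta posteriors of the single replicates, pooled per group, and takes in counting error and the spread between replicates. With limma at an FDR under 0.05 and the same 10 points, 744 were called. Microexons, which here are at most 15 bases long, changed in 75 of 284 cases (26.4%), against 722 of 21137 cassette exons (3.42%). Of the 75 microexons 71 were gained and 4 were lost, whereas cassette exons divided into 349 and 373. The median PSI of the gained microexons went from 1.29 to 51.5, and in WT neurons the same exons had a median of 66.7. A length that is a multiple of 3, which keeps the reading frame, was found in 94.4% of the gained microexons and in 78.5% of the microexons tested. All 75 could be tested in WT cells, where 70 were called as well, each in the same direction. Of all 797 exons 743 could be tested there, 551 were called and 518 moved the same way, where 6.11% of all exons tested in both genotypes were called.

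The 5 exons with the largest gain lay in Gabbr1, Agap1, Porcn, Dtna and Spna2, the last 4 of them microexons. In Gabbr1, which encodes a GABA-B receptor subunit, a 151-base exon at chr17:37204159-37204309 (mm9) had PSI values of 11.9, 13.4 and 5.88 in the NPC and 93.7, 93.5 and 94.6 in the neuron libraries. In Agap1, an endosomal GTPase-activating protein, a 12-base exon at chr1:91506859-91506870 had values of 1.24, 0 and 0 in the NPC and 81.0, 76.8 and 85.1 in the neuron libraries. The 15-base exon of Spna2, the alpha-II spectrin of the submembrane skeleton, at chr2:29869678-29869692, had values of 13.8, 13.3 and 16.0 in the NPC and 88.1, 89.2 and 89.9 in the neuron libraries. The starting points differed: Agap1 was near 0, while the Spna2 exon was already partly included in NPCs. Porcn, a Wnt-modifying acyltransferase, and Dtna, a dystrophin-associated protein, gained 79.3 and 79.2 points on 15-base and 9-base exons. The 5 largest losses were in Lmtk3, Myo9a, Tmem63b, Kidins220 and Ect2. A 109-base exon of Lmtk3, a neuronal kinase, at chr7:53043016-53043124 had values of 92.1, 87.3 and 95.2 in the NPC and 9.56, 11.8 and 9.76 in the neuron libraries. The 93-base exon of Ect2, the cytokinesis exchange factor, at chr3:27047717-27047809 had values of 80.0, 87.9 and 86.5 in the NPC and 13.8, 10.8 and 13.5 in the neuron libraries. Libraries of the same stage lay close together for both exons and the stages far apart. The losses in Myo9a, Tmem63b and Kidins220 were 79.0, 75.1 and 72.5 points, and all 10 exons were called in the same direction in WT cells. No sequence of these exons is shown because no genome of the build of their coordinates was used here.

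**Figure D4:**
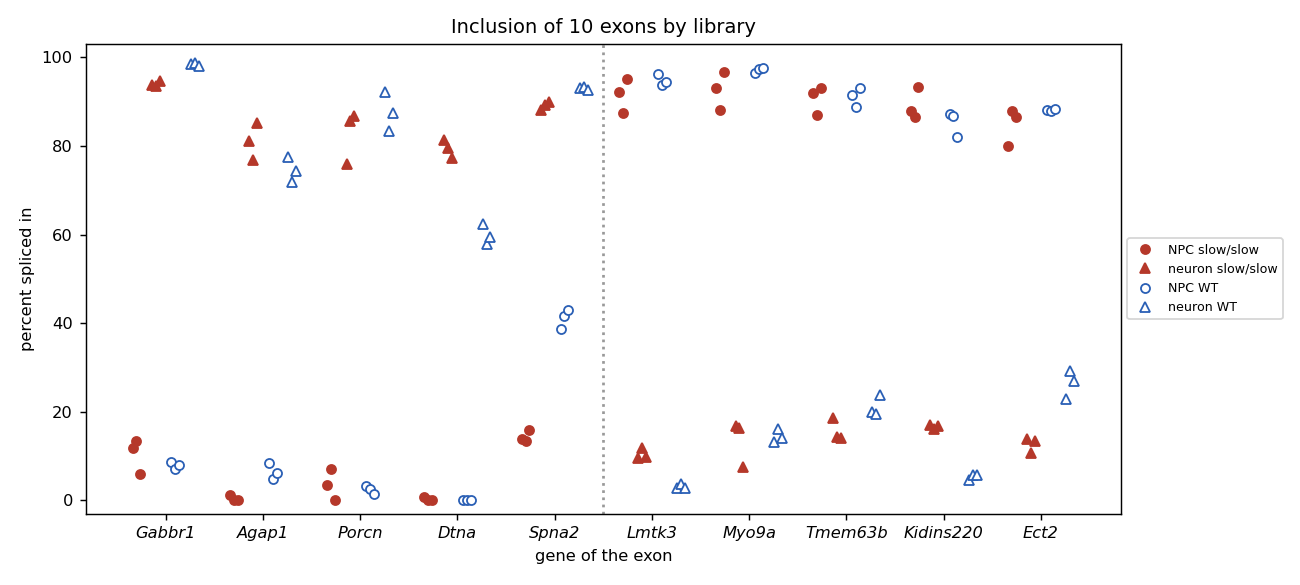
Percent spliced in of the 10 named exons, 1 point per library, for slow/slow NPCs and neurons (filled) and WT NPCs and neurons (open); the 5 exons on the left gained and the 5 on the right lost inclusion. In each exon the NPC and neuron libraries of slow/slow cells did not overlap.

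Gene length moved with the direction of change in both genotypes. Among the 4294 tested genes that span at most 10 kb, 32.6% rose and 39.4% fell in slow/slow cells, and among the 209 that span more than 500 kb, 85.6% rose and 7.18% fell. In WT cells 84.7% of those 209 genes rose. Their median log2 change was 3.04 in slow/slow and 4.29 in WT cells, with a median difference of -1.16, and 48.8% of them differed downwards and 12.4% upwards between the courses, against 30.4% and 24.7% of all genes. These shares describe genes of these libraries, and genes are not independent replicates. Nrxn3, Rbfox1 and Csmd1, whose levels are given above, are among the 209. By chromosome, slow/slow medians lay between -0.18 on chromosome 19 and 0.21 on chromosome 6.

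**Figure D5:**
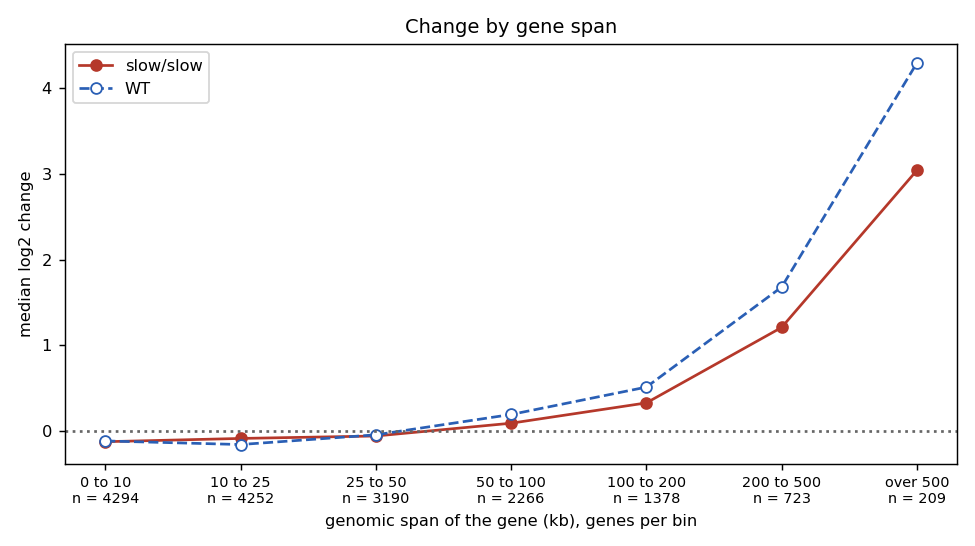
Median log2 change from NPCs to neurons by genomic span of the gene in kb, for slow/slow (filled) and WT (open) cells, over the 16312 tested genes with a span; the number of genes stands under each bin. In the longest bin the slow/slow median was 3.04 and the WT median 4.29.

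Activity-dependent and stress genes gave no single direction and a mostly downward one. Of 19 immediate-early and activity genes 9 rose, 4 fell and 6 did not pass: Jun rose from 53.6 ± 6.08 to 192 ± 24.6 CPM, Fos from 5.85 ± 1.36 to 10.0 ± 1.07 CPM, and Arc, a synaptic plasticity gene, fell from 10.8 ± 1.41 to 2.63 ± 0.0834 CPM. Bdnf, the neurotrophin, rose from 1.97 ± 0.355 to 3.71 ± 0.389 CPM, whereas Vgf, a neuropeptide precursor, did not pass at 4.45 ± 0.531 to 3.94 ± 0.195 CPM and stood at 109 ± 11.1 CPM in WT neurons, a difference of -4.90 ± 0.64 between the courses (edgeR FDR 2.9e-06). Of 15 stress genes 10 fell, 1 rose and 4 did not pass. The one that rose, Ddit3, which encodes the stress factor CHOP, went from 8.80 ± 1.39 to 15.3 ± 1.11 CPM (edgeR FDR 0.046) and did not pass when any 1 of the 6 libraries was left out, with edgeR FDR values of 0.055 to 0.13. Trib3 and Asns, targets of the amino acid response, fell from 39.6 ± 11.1 to 3.92 ± 0.241 CPM and from 376 ± 34.7 to 98.3 ± 10.1 CPM, and Pmaip1, a pro-apoptotic p53 target, fell from 35.6 ± 3.00 to 1.86 ± 0.0582 CPM.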

How the data were processed

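RNA was sequenced from 24 samples in 8 groups, 4 stages of slow/slow and WT cells with 3 replicates each. The poly(A) libraries were stranded and read as pairs, and per the labels reads were aligned to mm9 after demultiplexing with bcl2fastq 2.17.1.14. Unnormalised counts of reads on each gene, made with vast-tools, were deposited together with RPKM columns that the authors averaged per group. They also deposited the percent spliced in of each exon with its junction read counts, made by vast-tools from the same reads. Whether counting used the strand is not given in the sources used here, so overlapping genes cannot be told apart.

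Of 22667 genes listed, 21553 had counts, and 16627 passed filterByExpr (minimum count 10). Counts of all 24 libraries were fitted by edgeR 4.0.16 (TMM, quasi-likelihood F test, 16 residual degrees of freedom, Benjamini-Hochberg FDR under 0.05), with the SE as the log2 change divided by the root of F. The difference between the courses was the interaction of stage and genotype. CPM used TMM-adjusted library sizes. Named genes were the 10 largest rises and falls with at least 10 CPM and no overlap, the 10 most positive and negative differences, the list members with the largest changes or highest level or that define the list, the 5 exons most gained and lost, and Polr2a. A few genes that this rule takes in are not reported here. Others were chosen after their values were seen. The members and lists were chosen with earlier results of these data known. Gene identity, span and chromosome came from GENCODE vM21, which held 20451 identifiers (94.9%).

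Exons needed the coverage code of the authors to pass in all 6 libraries. Beta posteriors of the single replicates were pooled per group and refitted as a beta distribution, which takes in counting error and the spread between replicates. The probability of a difference came from these distributions and was used with a minimum of 10 points. The balance score of microexons was listed as missing for all, so that part of the filter was not applied to them. Alternatives were other scalings, no filter, DESeq2 1.42.0, limma 3.58.1 for exons, subsets of samples and each replicate left out. The edgeR contrast of the slow/slow stages, the exon calls and limma without replicate numbers were tested on simulated data. Intervals of count ratios (95%, exact binomial) cover counting error only. Where a group had no count, a floor of 3 counts over its libraries stood in. No libraries were identical. Whether replicate numbers pair the samples is not given in the sources used here. Deviations of same-numbered slow/slow NPC and neuron libraries correlated by 0.0706, 0.0197 and 0.00887. Those of different numbers correlated by -0.043 to 0.0226, and values this small cannot decide the question.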

Additional observations from a re-analysis of the deposited data

Results flagged for a closer look

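The results here are those whose change from NPCs to neurons differed between slow/slow and WT cells in the interaction test, given as the log2 change in slow/slow minus that in WT cells ± SE. Such a difference was found for 55.1% of all genes tested, and what underlies each was not tested.

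Interferon-response genes differed upwards, with values for Oasl2 10.23 ± 0.97 (edgeR FDR 5.4e-08), Usp18 8.01 ± 1.40 (edgeR FDR 7.6e-05), Rtp4 7.82 ± 1.51 (edgeR FDR 2.1e-04), Ifi27 7.36 ± 0.71 (edgeR FDR 6.2e-08), Oas1b 7.29 ± 0.79 (edgeR FDR 2.9e-07), Ifit1 7.25 ± 1.78 (edgeR FDR 0.0018) and Rsad2 7.23 ± 1.35 (edgeR FDR 1.5e-04). The exons of Rtp4 overlap those of another gene, Gm45338. Genes of placenta, connective tissue and endothelium also differed upwards, with values for 1600012P17Rik 10.67 ± 2.22 (edgeR FDR 9.9e-04), Lum 7.25 ± 1.00 (edgeR FDR 8.4e-06), Tie1 9.67 ± 0.54 (edgeR FDR 6.4e-11) and Pecam1 5.91 ± 0.19 (edgeR FDR 7.0e-14).

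Among neural genes the upward differences were Th 5.54 ± 0.71 (edgeR FDR 2.1e-06), Lhx2 4.06 ± 0.29 (edgeR FDR 1.4e-09), Cntn2 3.88 ± 0.37 (edgeR FDR 5.3e-08), Pax3 3.16 ± 0.40 (edgeR FDR 2.2e-06) and Notch1 1.62 ± 0.11 (edgeR FDR 8.5e-10). The downward ones among genes of axons and synapses were Gria2 -7.07 ± 1.46 (edgeR FDR 5.2e-04), Csmd1 -7.36 ± 1.25 (edgeR FDR 7.9e-05), Ncam2 -6.96 ± 1.15 (edgeR FDR 6.3e-05), Snap25 -4.03 ± 0.51 (edgeR FDR 1.8e-06), Gap43 -3.17 ± 0.32 (edgeR FDR 1.0e-07) and Vgf -4.90 ± 0.64 (edgeR FDR 2.9e-06). Gria2, Csmd1 and Ncam2 had no count in WT NPCs and 1600012P17Rik none in slow/slow NPCs, so these fitted sizes depend on the prior count. Progenitor, glial and patterning genes with downward differences were Fabp7 -4.71 ± 0.88 (edgeR FDR 1.5e-04), Cdh2 -3.57 ± 0.50 (edgeR FDR 6.2e-06), Tnc -2.92 ± 0.28 (edgeR FDR 5.4e-08), Olig2 -6.75 ± 0.88 (edgeR FDR 2.6e-06) and Shh -5.62 ± 0.65 (edgeR FDR 6.5e-07).

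The rest of the most negative differences were Nkx1-2 -9.41 ± 0.74 (edgeR FDR 4.6e-09), 1500015O10Rik -8.26 ± 0.58 (edgeR FDR 1.0e-09), Lef1 -7.09 ± 0.59 (edgeR FDR 1.1e-08), Zfp804a -7.03 ± 0.86 (edgeR FDR 4.7e-06), Wnt8a -6.93 ± 0.91 (edgeR FDR 3.0e-06) and Epha3 -6.77 ± 1.44 (edgeR FDR 5.2e-04). Zfp804a encodes a zinc-finger protein and Epha3 an ephrin receptor of axon guidance. Polr2a differed by -1.24 ± 0.23 (edgeR FDR 1.6e-04), being lower in each slow/slow neuron library than in each slow/slow NPC library and overlapping between the WT stages.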

How the results depend on the processing

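The counts of genes changed, 12470 between the slow/slow stages and 9161 between the courses, stayed within 1.5 times under other scalings, without the filter, in DESeq2 (12470 and 9319) and with the replicate block (12589 and 9382). The block treats same-numbered samples as belonging together, which is not known to hold, and not every NPC library correlated best with its own number. A minimum change of 2-fold gave 7138 and 4938, and lowered the share of rising genes among those over 500 kb from 85.6% to 78.5%. Fits of only the slow/slow samples or only NPCs and neurons gave 13491 and 11801. With each replicate left out in turn, 11879 to 12017 genes changed and 8458 to 8690 differed. Between 418 and 423 list members were called, against 433 in the main fit, and all 20 named rises and falls remained. Between 801 and 834 exons were called, chromosome medians spanned 0.384 to 0.413, and 83.7% to 84.7% of the longest genes rose. For exons, 15 points gave 561, at least 20 reads 794, limma 744 and limma with the replicate block 781. Upper-quartile scaling shifted the median change by -0.0909 in slow/slow and -0.275 in WT cells, and by 0.184 between the courses.

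Small values changed sign. With only the 6 slow/slow samples, where fewer genes were tested, list medians became -0.296 for endoderm and epithelium and 1.04 for Hox groups 6 to 13. For the difference between the courses, the median of immediate-early genes became 0.09 with upper-quartile scaling and lay between -0.229 and 0.00869 without single replicates, and that of replication genes between -0.0688 and 0.0799. Of genes that did not pass, upper-quartile scaling turned E2f1 to -0.0474, Nkx1-2 to -0.0448 and Pdgfra to -0.047. Without single replicates Chat lay between -0.245 and 0.096, Nkx1-2 between -0.0696 and 0.139, and Pdgfra between -0.222 and 0.193. Apart from calls lost only to the 2-fold minimum, the calls of genes named here that changed under any alternative were those of Cacna1a, Notch3, Olig1, Sox2, Ddit3, En2, Egr2, Foxj1, Tnc and Pecam1 between the slow/slow stages, and none of those between the courses. Tnc (edgeR FDR 0.085 and 0.065) was lost without NPC replicate 2 or neuron replicate 1, and Pecam1 (0.072 to 0.12) without NPC replicate 2 or 3 or neuron replicate 1 or 3.

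The 3 libraries of a group limit small changes, and counts near 0 limit the folds of placental and some synaptic genes.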

Other observations

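The placental families could be followed through the other slow/slow stages, which enter no comparison here. In slow/slow ESCs the 22 prolactin family genes summed to at most 0.0619 CPM and the 10 cathepsin and Tpbp genes to between 0.164 and 0.186 CPM. In slow/slow PSA-NCAM+ cells, purified on beads from the monolayer with no replating, the sums were 0.120 to 0.184 CPM and 0.0873 to 0.408 CPM. Of the 4 slow/slow stages, sums above 1 CPM were found in the replated neurons alone. The interferon-stimulated genes were present earlier, their sum being 199.9 to 207 CPM in slow/slow ESCs and 164 to 360.4 CPM in slow/slow PSA-NCAM+ cells.

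Neural crest genes gave a mixed picture in slow/slow cells. Tfap2a and Ngfr, a crest factor and the low-affinity neurotrophin receptor, rose from 2.51 ± 0.452 to 38.1 ± 3.94 CPM and from 6.84 ± 0.0729 to 49.3 ± 2.15 CPM, while Foxd3, an early crest and pluripotency factor, fell from 26.7 ± 4.23 to 4.74 ± 0.765 CPM and Prph, a peripheral neuron filament, from 30.7 ± 1.09 to 2.83 ± 0.298 CPM. Among ependymal genes Rfx3, a ciliogenesis factor, rose from 21.0 ± 3.10 to 71.9 ± 3.96 CPM, and Foxj1, the master factor of motile cilia, did not pass at 2.32 ± 0.179 to 3.95 ± 0.786 CPM (edgeR FDR 0.002 with only the 6 slow/slow samples fitted), with 40.2 ± 0.845 CPM in WT neurons. Folr1, the folate receptor of choroid plexus and early neuroepithelium, fell from 64.6 ± 8.36 to 3.65 ± 0.195 CPM.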
